A study of Mus musculus with 19 samples.

Results

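The genes described here are 10 members of the bone morphogenetic protein (BMP) pathway and its Id targets: the ligands Bmp4 and Bmp7, the type I receptors Bmpr1a and Bmpr1b, the signal transducer Smad1, the inhibitory Smad6, and Id1, Id2, Id3 and Id4. They were taken by symbol from the probe annotation, 10 of 18193 genes with a probe set of 1 symbol, and each gene was read from whichever of its probe sets had the highest mean over the 19 arrays. Of the 10, 9 were at or above the array median in at least 3 arrays and were tested, among 12148 genes tested in all. Bmp4 did not pass. Smad6 passed through the NEP arrays only, the group in which it is high, so it had to differ there, and its differences are given with no p. The arrays were Affymetrix Mouse430+2 and held RNA of C57BL/6 mice in 5 groups. The groups were 4 arrays of tumors that arose in Nestin-CreERT2/Ptch1C/C animals (NEP tumors), 4 arrays of tumors that arose in Math1-CreERT2/Ptch1C/C animals (GNP tumors), 4 arrays of Nestin-positive neuronal progenitors (NEPs), 4 arrays of Math1-positive neuronal progenitors (GNPs) and 3 arrays of CD133-positive, lineage-negative cerebellar progenitors (NSCs, replicates 1, 2 and 6). In the tumor models the Nestin or the Math1 promoter drives a Cre recombinase that acts once tamoxifen is given, and Ptch1, whose product restrains Hedgehog signalling until its ligand binds, carries conditional alleles. All cells came straight from the cerebellum, with no culture. The labels state neither age nor sex, do not mention pooled animals, and make no statement that the arrays of a group are separate animals, so p-values measure only the spread between these arrays. The values are log2 probe set signals.

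BMP ligands bind a complex of type I and type II serine/threonine kinase receptors, and the type I receptor phosphorylates Smad1, Smad5 or Smad9, which enter the nucleus with Smad4. The Id genes are among the most direct targets of these Smads. Id proteins have a helix-loop-helix domain without a DNA-binding region, and by pairing with E proteins they keep basic helix-loop-helix (bHLH) factors such as Atoh1, Neurod1 or the neurogenins from binding DNA. In the cerebellum, BMPs of the roof plate help to induce the rhombic lip, the source of Atoh1-positive granule neuron progenitors, and BMP signalling later opposes the growth that Sonic hedgehog drives in these cells.

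Promoter sequences are shown for Id3, Id4 and Smad6, which were higher together in NEPs, and for Id2, which was not called there. They are the 250 bases before the annotated start in RefSeq (GRCm38.p6), 5′ to 3′ on the strand of the gene. Capitals mark matches on either strand to GGCGCC, a GC-rich element of BMP-responsive enhancers, and to GTCT (AGAC on the other strand), the core of the Smad binding element.
Id3, chr4:136143572-136143821, plus strand: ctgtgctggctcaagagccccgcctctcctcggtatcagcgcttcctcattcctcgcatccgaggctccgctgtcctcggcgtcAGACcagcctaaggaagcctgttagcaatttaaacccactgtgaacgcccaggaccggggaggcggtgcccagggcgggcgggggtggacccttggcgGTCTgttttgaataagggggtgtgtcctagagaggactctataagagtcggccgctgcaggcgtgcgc
Id4, chr13:48260866-48261115, plus strand: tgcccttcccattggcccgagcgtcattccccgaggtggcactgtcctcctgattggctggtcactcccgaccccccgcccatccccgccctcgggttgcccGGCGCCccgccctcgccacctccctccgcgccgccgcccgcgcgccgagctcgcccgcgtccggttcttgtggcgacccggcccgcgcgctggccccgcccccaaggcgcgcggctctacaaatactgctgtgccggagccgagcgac
Smad6, chr9:64022060-64022309, minus strand: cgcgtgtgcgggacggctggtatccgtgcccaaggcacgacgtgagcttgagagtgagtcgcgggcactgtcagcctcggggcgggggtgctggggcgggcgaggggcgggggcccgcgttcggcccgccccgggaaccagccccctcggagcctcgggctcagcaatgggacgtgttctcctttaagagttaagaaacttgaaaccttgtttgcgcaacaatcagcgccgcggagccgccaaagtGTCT
Id2, chr12:25096093-25096342, minus strand: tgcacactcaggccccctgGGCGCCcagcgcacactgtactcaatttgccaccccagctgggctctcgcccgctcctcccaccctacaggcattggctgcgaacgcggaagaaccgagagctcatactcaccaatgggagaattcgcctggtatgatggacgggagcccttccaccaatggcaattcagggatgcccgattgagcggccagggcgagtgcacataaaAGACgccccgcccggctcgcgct
RefSeq windows were matched for 8 of the 10 genes. Id1 and Bmp7 were not matched. GGCGCC was present in the windows of Id4, Id2 and Bmpr1a, its first base lying 148, 231 and 198 bases before the start. This word occurred in 9.59% of 32841 windows of the same length. GTCT was present in the Id3 window at 166 and 68 bases before the start, in the Smad6 window at 4 bases and in the Id2 window at 23 bases, as well as in windows of Bmp4 and Bmpr1b, and 82.9% of all windows held it. The Smad1 window held neither word nor CANNTG, the E box that bHLH factors bind, which occurred in 66.2% of windows. GGCGCC and GTCT cannot overlap, CANNTG can overlap GTCT, and a match describes letters, not a bound site.

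The label genes were checked first. The Nestin gene Nes averaged 5.87 ± 0.19 in NEPs, 3.49 ± 0.35 in GNPs and 4.47 ± 0.12 in NSCs (mean log2 signal ± SD, n = 4, NSC n = 3). Atoh1, also called Math1, averaged 3.95 ± 1.59 in NEPs, 8.85 ± 0.086 in GNPs and 8.93 ± 0.012 in NSCs, so the NSC arrays carried it at the GNP level. The CD133 gene Prom1 averaged 8.61 ± 0.30 in NEPs, 7.24 ± 0.17 in GNPs and 8.08 ± 0.11 in NSCs. Ptch1 stood at 11.46 ± 0.090 in NEP tumors and 11.21 ± 0.036 in GNP tumors, and whether its probe set lies in the deleted part is not known here. NEP arrays 1 and 2 stood apart from NEP arrays 3 and 4. The 13 tested markers of microglia and macrophages had medians of 8.99, 9.22, 4.30 and 2.24 on NEP arrays 1 to 4, and the 13 of pericytes, fibroblasts and meninges had medians of 9.34, 9.31, 6.63 and 5.33. The titles share 1 number among NEP and GNP arrays and another among NSC and tumor arrays. These sets are read here as the first and the second run, although the labels do not say what the numbers mean. Run and group cannot be told apart in any comparison across these runs.

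Across the 5 groups the genes fell into a few patterns, shown in the plot of levels by array. Id3 and Id4 were high in NEPs, intermediate in NSCs, and lower in both tumors and in GNPs. Bmpr1b, Bmpr1a, Bmp7 and Smad6 were also highest in NEPs, with no overlap between the NEP arrays and those of any other group. Id2 lay between 9.39 and 10.63 and Smad1 between 9.53 and 10.22 over all 19 arrays. In cells collected in bulk, fewer cells of a type and less RNA per cell cannot be told apart.

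**Figure D1:**
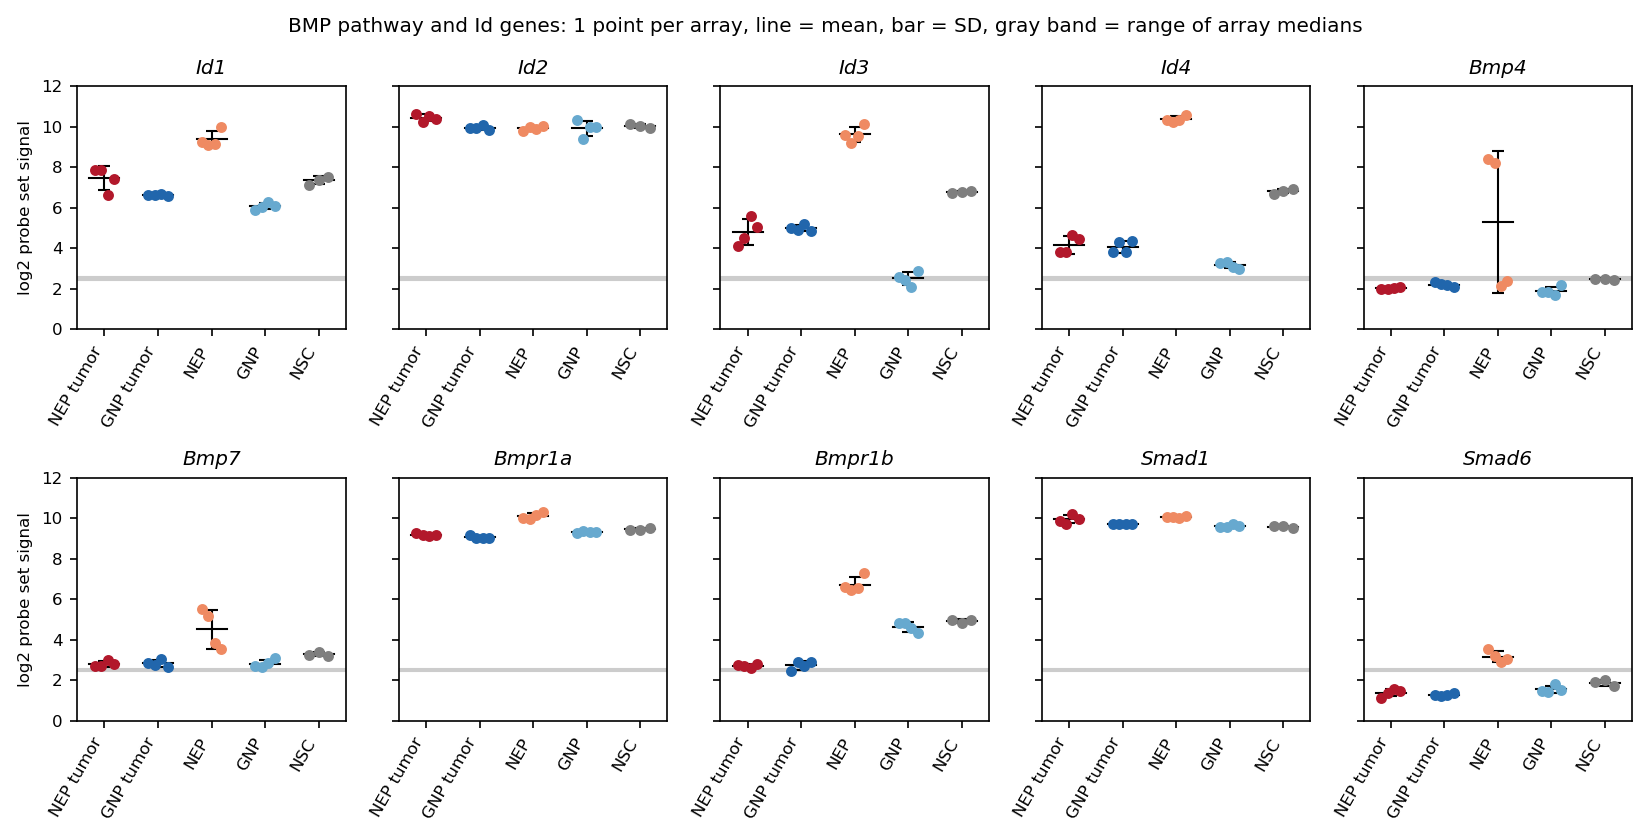
Log2 probe set signal of the 10 genes (y axis) on each of the 19 arrays, by group on the x axis. Points are arrays, lines are means, bars are SD (n = 4, NSC n = 3), and the gray band is the range of the array medians, 2.44 to 2.57. The NEP points of Id3 lie between 9.19 and 10.12 and those of Id4 between 10.24 and 10.57, above every other group, while Bmp4 is high on NEP arrays 1 and 2 alone.

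NEPs, set against GNPs within a run, had higher signals of nearly every gene of the set. Of the 9 tested, 8 were called higher in NEPs at an adjusted p below 0.05 and none lower, or 7 of 8 without Smad6, where 29.6% of all genes tested were called higher and 39.9% lower. The median difference of the 9 was 1.69 on the log2 scale, against -0.11 over all genes. Id3 and Id4 differed by 7.10 and 7.20 log2 units, Id4 by 6.24 with the mean of its probe sets, receptors and Smads by 0.45 to 2.08, and Id2 was not called. All 8 calls also stood in every alternative listed in which the gene was tested.

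Among the ligands, Bmp7, a BMP of neural and skeletal tissue, had log2 signals of 5.52, 5.15, 3.83 and 3.54 on NEP arrays 1 to 4, against 2.70, 2.66, 2.87 and 3.08 on GNP arrays 1 to 4. The groups did not overlap, and NEP arrays 1 and 2 were the higher pair. The difference was 1.69, SE 0.31 (limma adjusted p = 0.000128), and with NEP arrays 3 and 4 only it was 0.86 (limma adjusted p = 3.56e-05). The Bmp7 SD was 0.97 in NEPs and 0.19 in GNPs. The SE and first p use 1 spread per gene from all 5 groups, so they understate the NEP spread. The second p rests on NEP arrays 3 and 4, a choice made after earlier results were seen. Bmp4, a ligand of the early dorsal neural tube, gave 8.38 and 8.22 on NEP arrays 1 and 2 but 2.15 and 2.38 on NEP arrays 3 and 4. On GNP arrays it gave 1.86, 1.85, 1.68 and 2.17, all under the array median. NEP arrays 3 and 4 were thus near the GNP range, and Bmp4 reached the array median on 2 of the 19 arrays. In a fit of all probe sets with 1 symbol and no filter it differed by 3.40 between NEPs and GNPs (limma adjusted p = 0.0107), a value carried by NEP arrays 1 and 2.

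Among the receptors, Bmpr1b, a type I receptor, had 6.59, 6.47, 6.53 and 7.28 on NEP arrays 1 to 4, against 4.82, 4.82, 4.59 and 4.31 on GNP arrays 1 to 4. Every NEP array was above every GNP array, and arrays 1 and 2 did not stand apart from array 3. The difference was 2.08, SE 0.16 (limma adjusted p = 6.30e-09), or 4.24-fold. Bmpr1a, the more widely expressed type I receptor, had 10.01, 9.97, 10.16 and 10.30 on NEP arrays 1 to 4, against 9.25, 9.37, 9.29 and 9.33 on GNP arrays 1 to 4. It was bright in both groups without overlap, and the difference was 0.80, SE 0.074 (limma adjusted p = 5.99e-08), or 1.74-fold. The other probe sets gave smaller or no differences for Bmpr1b, at 0.25 and 0.049, neither called and both dim, so the mean over its 3 probe sets differed by 0.80, still called. Of 6 Bmpr1a probe sets, 5 were called higher in NEPs and the dim sixth was not.

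Among the Smads, Smad1, which carries the BMP signal, had 10.05, 10.05, 9.997 and 10.11 on NEP arrays 1 to 4, against 9.56, 9.57, 9.71 and 9.59 on GNP arrays 1 to 4. The groups did not overlap although the step was small, at 0.45, SE 0.082 (limma adjusted p = 0.000138), or 1.36-fold. All 3 of its probe sets were called higher, by 0.44 to 0.57. Smad6, an inhibitor that BMP signalling itself induces, had 3.54, 3.19, 2.88 and 3.05 on NEP arrays 1 to 4, against 1.48, 1.43, 1.81 and 1.54 on GNP arrays 1 to 4. It was above the array median on all 4 NEP arrays and on no array of another group. The means differed by 1.60, a description against signals under the array median.

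Among the Id genes, Id4 and Id3 were far apart between the groups. The Id4 signals were 10.32, 10.24, 10.30 and 10.57 on NEP arrays 1 to 4, against 3.27, 3.31, 3.08 and 2.98 on GNP arrays 1 to 4. The NEP arrays lay close together, including the 2 with many microglial transcripts, and the difference was 7.20, SE 0.18 (limma adjusted p = 1.94e-15), a 147-fold ratio of array signals. Id3 had 9.56, 9.19, 9.56 and 10.12 on NEP arrays 1 to 4, against 2.59, 2.43, 2.11 and 2.90 on GNP arrays 1 to 4. In GNPs it reached the array median on 2 of 4 arrays, and the difference was 7.10, SE 0.25 (limma adjusted p = 1.38e-13), a 137-fold ratio of array signals. Id1 had 9.23, 9.10, 9.16 and 9.99 on NEP arrays 1 to 4, against 5.91, 6.05, 6.26 and 6.09 on GNP arrays 1 to 4. The groups were well apart, with NEP array 4 above the other NEP arrays, and the difference was 3.29, SE 0.23 (limma adjusted p = 1.68e-09), or 9.79-fold.

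Id2 did not follow the other 3. Its signals were 9.78, 9.98, 9.88 and 10.01 on NEP arrays 1 to 4, against 10.30, 9.39, 9.98 and 9.97 on GNP arrays 1 to 4. The NEP arrays lay inside the GNP range, and the difference was -0.00 with a 95% interval of -0.30 to 0.30 (limma adjusted p = 0.997). Its other probe sets, at -0.026 and 0.34, were not called either. The 3 Id4 probe sets were all called, at 7.20, 5.54 and 5.98, and the 3 of Bmp7 at 1.69, 2.65 and 1.67, while Id1, Id3, Bmp4 and Smad6 had 1 probe set each.

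Markers of other cells moved with these differences. All 13 tested pericyte, fibroblast and meningeal markers were called higher in NEPs, with log2 summed signals of 11.02 to 14.04 in NEPs and 6.94 to 8.12 in GNPs. All 13 tested microglia and macrophage markers were called higher, with summed signals of 6.28 to 13.29 in NEPs and 5.72 to 5.89 in GNPs. All 12 Bergmann glia and astrocyte markers were called higher, with summed signals of 14.13 to 14.46 in NEPs and 10.67 to 10.78 in GNPs. The first 2 lists followed the split of NEP arrays 1 and 2 from 3 and 4, as Bmp4 and Bmp7 did, and the glial list did not, its medians being 10.34, 10.37, 10.52 and 10.65. Of endothelial markers, 10 of 11 were called higher and 1 lower, with summed signals of 7.85 to 10.06 in NEPs and 6.80 to 7.33 in GNPs. Of 11 markers of differentiating neurons 10 were called lower, with summed signals of 10.97 to 12.67 in NEPs and 13.98 to 14.06 in GNPs. Of 8 ependymal and choroid plexus markers 7 were called higher and 1 lower, with summed signals of 12.76 to 13.42 in NEPs and 11.79 to 12.43 in GNPs. On NEP array 4, defining markers of some of these cells were near the array median, with Lum, a proteoglycan of fibroblasts, at 2.52 and Pecam1, an endothelial adhesion protein, at 2.37. Others there were higher, with the endothelial cadherin gene Cdh5 at 4.14, 10 of 11 endothelial markers at or above the array median, the collagen gene Col1a2 at 8.59, the proteoglycan gene Dcn at 5.06 and Csf1r, a microglial receptor, at 3.51. On that array Id3, Id4 and Id1 stood at 10.12, 10.57 and 9.99. With NEP arrays 3 and 4 only, the same 8 genes were called, Id4 at 7.28, Id3 at 7.33 and Id1 at 3.496. The part of the other cells in the differences of Bmp4, Bmp7, Id1, Id3, Id4 and the other genes was not tested.

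**Figure D2:**
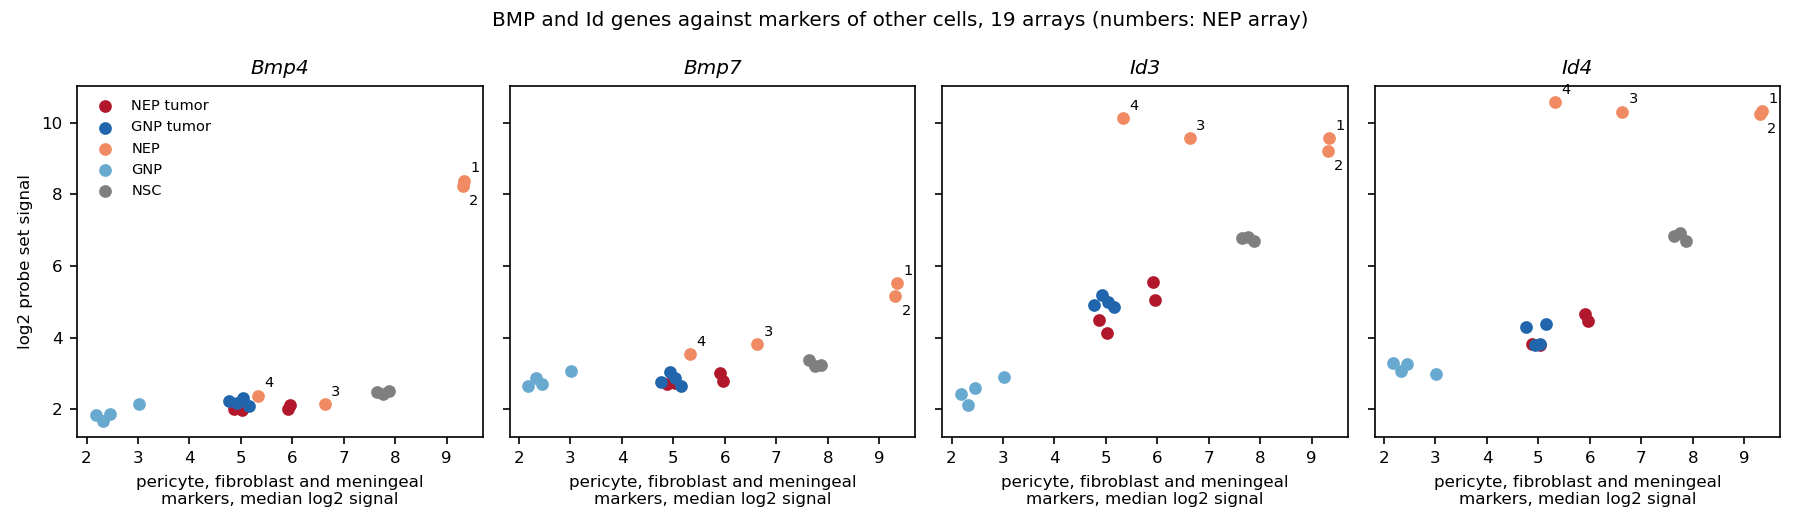
Log2 signal of Bmp4, Bmp7, Id3 and Id4 (y axis) against the median log2 signal of 13 pericyte, fibroblast and meningeal markers on the same array (x axis), 19 arrays, coloured by group, with the NEP arrays numbered. Bmp4 and Bmp7 are higher on NEP arrays 1 and 2 than on 3 and 4, while Id4 lies between 10.24 and 10.57 on all 4.

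Other genes of the pathway were listed by role from textbook knowledge, 72 genes of which 53 were tested. Of these 53, 30 were called higher in NEPs than in GNPs and 16 lower, where 69.5% of all genes were called in either direction. Bmper, Msx2 and Atoh8 passed the filter through NEPs only, and without them 27 of 50 were called higher and 16 lower. Among 3 ligands tested, Bmp2 and Bmp6 were called higher, by 2.26, SE 0.58 (limma adjusted p = 0.00235) and by 3.34, SE 0.63 (limma adjusted p = 0.000172), and Bmp5 was not called at 0.073. Bmp6 ranged from 2.98 to 7.09 over the NEP arrays and Bmp2 from 1.78 to 5.28, so both were uneven among the NEP arrays. Their SDs there were 2.06 and 1.91, against 0.11 each in GNPs. The SE and p use 1 spread per gene from all 5 groups, so they understate the NEP spread. Bmp2 was at or above the array median on 2 of 4 NEP arrays and on 0 of 4 GNP arrays. Among 7 receptors and coreceptors, 3 were called higher and 1 lower. Rgma, a membrane-anchored BMP coreceptor, stood at 8.48 ± 0.36 in NEPs and 2.79 ± 0.27 in GNPs, a difference of 5.68, while its relative Rgmb differed by -1.40. Of the type II receptors, Bmpr2 differed by 0.17 and was called, and Acvr2a and Acvr2b, at 0.079 and -0.12, were not.

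Antagonists, which bind BMPs outside the cell, were called higher in 5 cases and lower in 3 of 9. Bmper, among the 5, passed the filter through NEPs only, so it had to differ there. Fst, which encodes the activin and BMP binder follistatin, stood at 6.32 ± 0.38 in NEPs and 2.38 ± 0.37 in GNPs, and Chrd, which encodes chordin, ran the other way with 3.53 ± 0.29 in NEPs and 7.20 ± 0.26 in GNPs. These differences were 3.95, SE 0.20 (limma adjusted p = 1.63e-11) and -3.68, SE 0.14 (limma adjusted p = 4.77e-13). Nbl1, Bmper and Sostdc1, also secreted BMP binders, differed by 2.06, 2.39 and 2.78, Bmper against a GNP mean of 1.48, under the array median on all 4 arrays. All 11 Smads and regulators tested were called, 5 higher and 6 lower, with Smad5, another carrier of the BMP signal, highest at 1.03. With NEP arrays 3 and 4 only, 7 of these 11 were called. Of 5 other BMP targets, 4 were called higher and Hey1 lower. Msx2 and Atoh8, among the 4, passed the filter through NEPs only, so they had to differ there. Msx2 and Msx1, homeobox genes that BMPs induce, differed by 4.16 and 2.16, Msx2 with 6.07 ± 0.61 in NEPs and 1.91 ± 0.10 in GNPs, under the array median on all 4 GNP arrays. Msx1 was also counted among the choroid plexus markers.

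The E proteins and bHLH factors that Id proteins bind or oppose differed in both directions between NEPs and GNPs. Of 10 tested, 6 were called higher in NEPs, 3 lower and Tcf4 was not called. The shares of all genes tested were 29.6% higher and 39.9% lower, 69.5% in either direction. Ptf1a, the bHLH factor of GABAergic neurons of the cerebellum, differed by 8.07, Olig1 by 7.39, Neurog2 by 6.23, Neurog1 by 5.11 and Olig2 by 4.26. Ptf1a, Neurog2 and Neurog1 were under the array median on all 4 GNP arrays, with means of 2.07, 1.90 and 1.69, and these 3 differences are against such dim signals. Atoh1 differed by -4.90 and Neurod1, a factor of differentiating granule neurons, by -2.88. Both also belong to the granule and neuron marker lists, and the Atoh1 signals of NEP arrays ranged from 2.38 to 5.67. Tcf12, an E protein, differed by 0.76. In the TGF-beta and activin branch 5 of 8 were called higher and 2 lower, led by Smad3 at 3.56 and the receptor Tgfbr2 at 2.67, Tgfbr2 being uneven over the NEP arrays, from 6.30 to 9.73.

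NEP tumors and GNP tumors, compared within the second run, were much closer to each other in these genes. Of the 9 tested, Id1, Id2 and Smad1 were called higher in NEP tumors and none lower, where 15.5% of all genes were called higher and 8.10% lower. The median difference of the 9 was 0.11, against 0.049 over all genes. Each of the 3 calls was lost when some single array was left out. The other 6 differed by -0.18 to 0.13.

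Id1 had log2 signals of 7.84, 7.88, 6.61 and 7.43 on NEP tumor arrays 1 to 4, against 6.62, 6.61, 6.65 and 6.56 on GNP tumor arrays 1 to 4. NEP tumor array 3 lay within the GNP tumor range and the other NEP tumor arrays above it. The difference was 0.83, SE 0.23 (limma adjusted p = 0.0154). It was 0.70 without NEP tumor replicate 1 (limma adjusted p = 0.0550), 0.69 without NEP tumor replicate 2 (limma adjusted p = 0.0527) and 0.41 with NEP tumor arrays 3 and 4 only (limma adjusted p = 0.266), none of them called. Id2 had 10.63, 10.23, 10.51 and 10.38 on NEP tumor arrays 1 to 4, against 9.94, 9.95, 10.08 and 9.83 on GNP tumor arrays 1 to 4. The groups did not overlap, and the difference was 0.48, SE 0.14 (limma adjusted p = 0.0206), with the call lost without GNP tumor replicate 4 (0.44) or NEP tumor replicate 1 (0.42) and with NEP tumor arrays 3 and 4 only (0.49). Of its other probe sets, 1 was called at 0.96 and the other, at 0.69, was not. Smad1 had 9.87, 9.72, 10.22 and 9.97 on NEP tumor arrays 1 to 4, against 9.69, 9.70, 9.70 and 9.73 on GNP tumor arrays 1 to 4. NEP tumor array 3 was the highest and array 2 overlapped the GNP tumors. The difference of 0.24, SE 0.082 (limma adjusted p = 0.0416) fell to 0.15 without NEP tumor replicate 3, rose to 0.39 with NEP tumor arrays 3 and 4 only, and was not called when any single GNP tumor replicate was left out. It was also not called without NEP tumor replicate 4, with the mean of its probe sets, after a second quantile normalization, without the filter or with only these groups fitted. Its other probe sets differed by 0.51, called, and by -0.12, not called.

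Id3 and Id4, so far apart in the progenitors, overlapped in the tumors. Id3 had 4.13, 4.50, 5.57 and 5.06 on NEP tumor arrays 1 to 4, against 5.001, 4.91, 5.19 and 4.87 on GNP tumor arrays 1 to 4, and the difference was -0.18 with a 95% interval of -0.71 to 0.35. Id4 had 3.79, 3.81, 4.66 and 4.45 on NEP tumor arrays 1 to 4, against 3.84, 4.29, 3.80 and 4.37 on GNP tumor arrays 1 to 4, and the difference was 0.11 with a 95% interval of -0.28 to 0.49. In both genes NEP tumor arrays 3 and 4 were above arrays 1 and 2, and in Id1 they were below them. The Bergmann glia and astrocyte markers had medians of 6.99, 6.96, 8.24 and 7.78 on NEP tumor arrays 1 to 4, with 2 of 12 called higher and 3 lower in NEP tumors, and summed signals of 11.49 to 12.13 in NEP tumors and 11.63 to 11.68 in GNP tumors. Microglial medians were 3.82, 3.61, 5.44 and 4.59 on those arrays. None of 13 was called at an adjusted p below 0.05, with a median difference of -0.98. Summed signals did not overlap, at 8.59 to 9.86 in NEP tumors and 10.21 to 10.28 in GNP tumors. The spread per gene comes from all 5 groups, and these list medians had SDs of 3.47 in NEPs, 0.83 in NEP tumors and 0.18 in GNP tumors. The lack of calls therefore does not show equal levels in the tumors. The part of the glial and microglial markers in the array split was not tested.

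The ligands and receptors were at low or equal levels in the tumors. Bmp7 lay between 2.71 and 3.00 in NEP tumors and between 2.66 and 3.03 in GNP tumors, and Bmp4 was under the array median on all 8 tumor arrays. Bmpr1b lay between 2.60 and 2.81 in NEP tumors and between 2.45 and 2.92 in GNP tumors, a difference of -0.028 with a 95% interval of -0.37 to 0.31. Bmpr1a had 9.27, 9.16, 9.13 and 9.14 on NEP tumor arrays 1 to 4, against 9.17, 9.03, 8.996 and 9.003 on GNP tumor arrays 1 to 4. Its difference of 0.13, with a 95% interval of -0.029 to 0.28, was not called, though 2 of its other probe sets were, at 0.54 and 0.53, and the mean of all 6 was called at 0.26 (limma adjusted p = 0.0180). Smad6 was under the array median on all tumor arrays.

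Of the 53 other pathway genes, 6 were called higher in NEP tumors and 5 lower, against 23.6% of all genes called in either direction. Crim1, a membrane protein that binds BMPs, stood at 5.40 ± 0.17 in NEP tumors and 4.37 ± 0.078 in GNP tumors, a difference of 1.03, SE 0.13 (limma adjusted p = 3.88e-05). Sostdc1 differed by -1.03, SE 0.35 (limma adjusted p = 0.0412), with NEP tumor arrays from 2.05 to 4.22. Bambi, a pseudoreceptor that blocks BMP and TGF-beta signals, differed by -0.70, Rgmb by -0.40, Smad3 by 0.51 and Tcf4 by 0.24. None of the 3 ligands and none of the 5 other targets tested was called at an adjusted p below 0.05. Bmp5 stood at 7.34 ± 1.08 in NEP tumors and 6.23 ± 0.075 in GNP tumors, a difference of 1.11 (limma adjusted p = 0.063). Across runs, Bmp5 was called higher in NEP tumors than in NEPs, by 2.26 (limma adjusted p = 0.000133). It was also called higher in GNP tumors than in GNPs, by 1.23 (limma adjusted p = 0.0208). Run and group cannot be told apart there. With NEP tumor arrays 3 and 4 only, 1 ligand, 1 antagonist and 2 Smads and regulators were called, and no receptor or coreceptor.

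**Figure D3:**
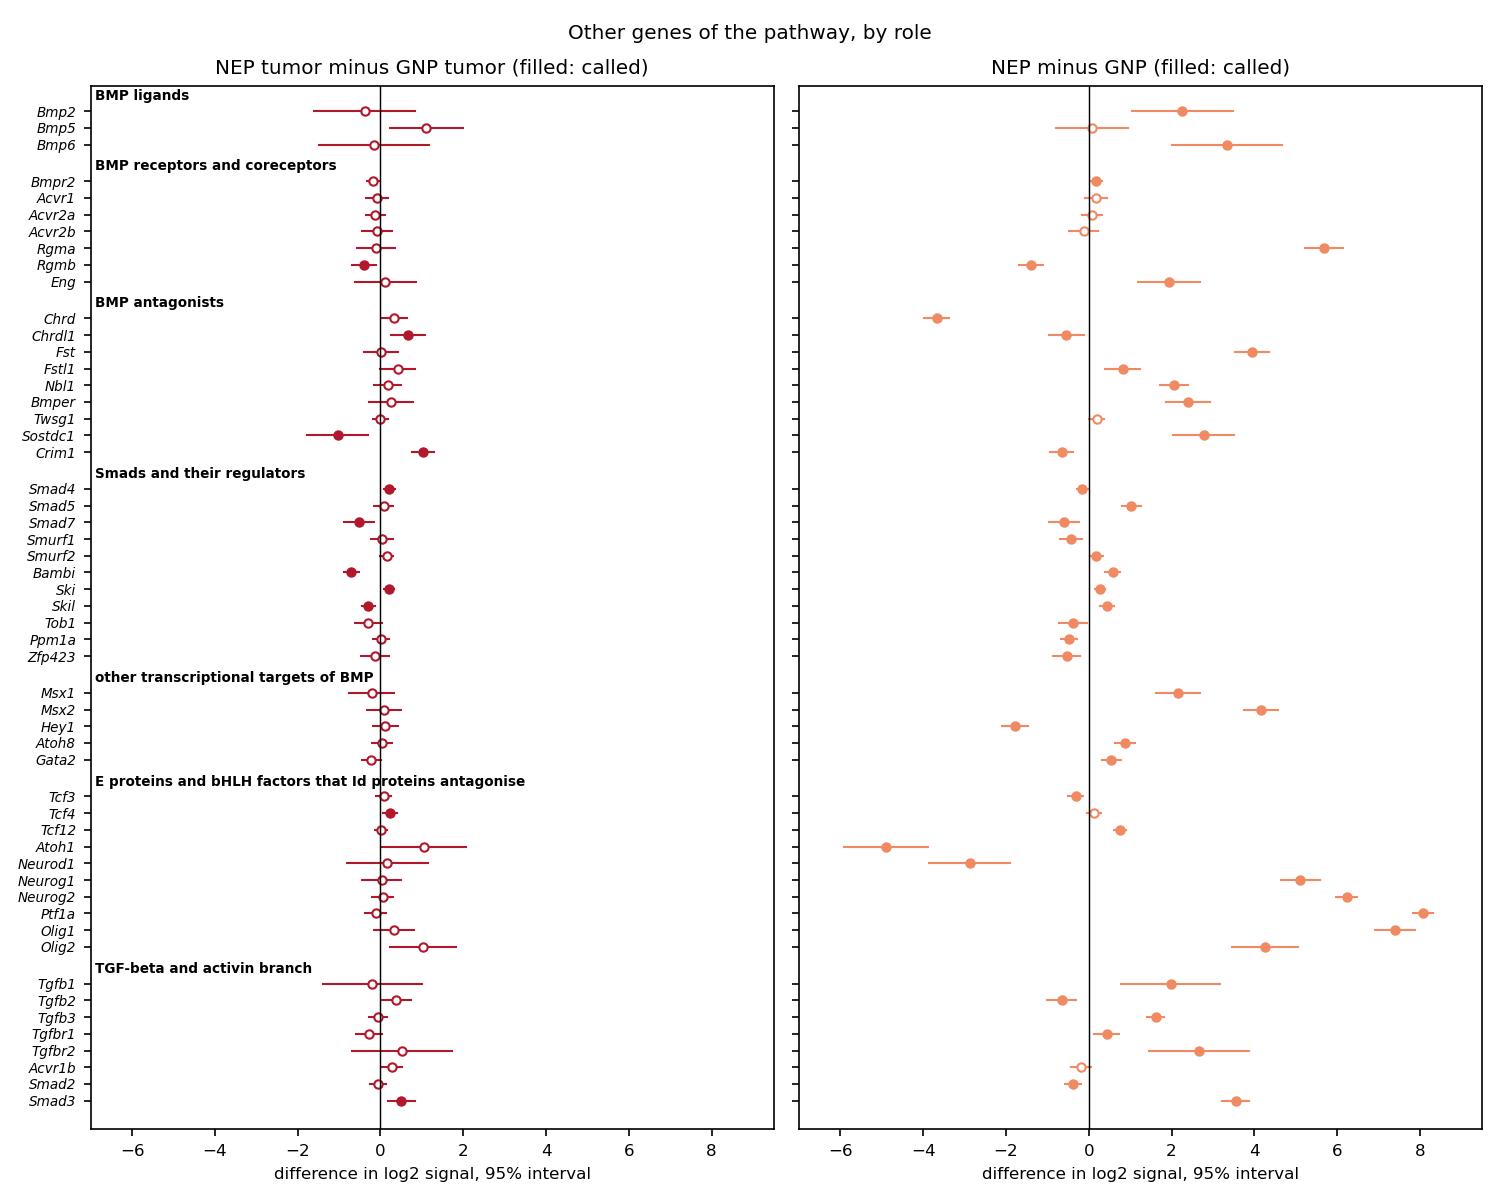
Difference in log2 signal (x axis) with its 95% interval for 53 other genes of the pathway (y axis, by role), NEP tumor minus GNP tumor on the left and NEP minus GNP on the right, filled where called. Ptf1a at 8.07 and Atoh1 at -4.90 mark the ends of the NEP minus GNP panel, and all tumor differences lie between -1.03 and 1.11.

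The lineage difference in tumors, minus the lineage difference in progenitors, was tested as an interaction. It was called for 8 of 9 genes, 1 higher and 7 lower, where 36.7% of all genes were called higher and 25.2% lower, 61.9% in either direction. For Id3 it was -7.28, SE 0.35 (limma adjusted p = 2.59e-11), for Id4 -7.09, SE 0.26 (limma adjusted p = 5.71e-13) and for Id1 -2.46, SE 0.33 (limma adjusted p = 7.52e-06). The NEP excess of these 3 genes was thus smaller between the tumors than between the progenitors. Bmpr1b gave -2.11, Bmp7 -1.71 and Bmpr1a -0.67. Smad6, at -1.51, was under the array median in 3 of the 4 groups compared, and without it 7 of 8 genes were called. Smad1, at -0.20 (limma adjusted p = 0.135), was not called. With NEP arrays 3 and 4 only, Bmp7 gave -0.88. The value of Bmpr1a fell to -0.23 and was not called with the mean of its probe sets (limma adjusted p = 0.0721). Id2 alone was positive, at 0.48 (limma adjusted p = 0.0448), and that call was lost in 12 of the 16 fits that each left out 1 array.

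**Figure D4:**
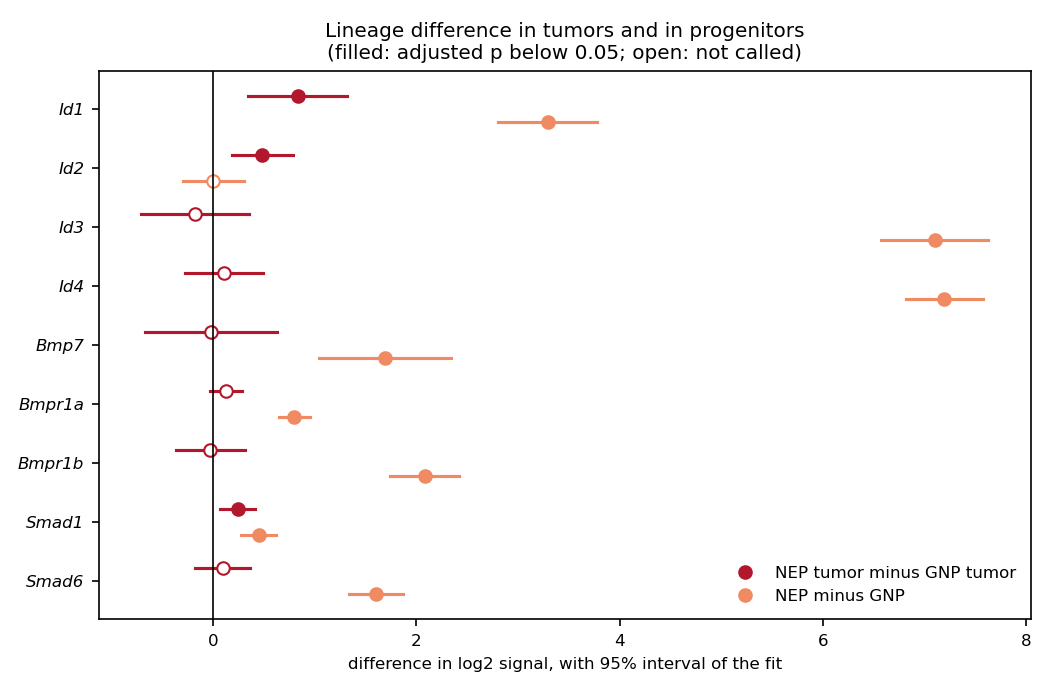
Difference in log2 signal (x axis) with its 95% interval for the 9 tested genes (y axis), NEP tumor minus GNP tumor above NEP minus GNP in each row, filled where the adjusted p is below 0.05. Id3 and Id4 lie at 7.10 and 7.20 for the progenitors, and at -0.18 and 0.11 for the tumors.

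Each tumor was set against the progenitor with the same marker, across runs. In NEP tumors 7 of 9 genes, Smad6 among them, were called lower than in NEPs, or 6 of 8 without Smad6. Id2 was called higher. Of all genes, 32.6% were called lower and 36.2% higher, 68.9% in either direction. Id4 differed by -6.18, SE 0.18 (limma adjusted p = 1.59e-14), and Id3 and Bmpr1b differed by -4.80 and -3.997. Id1 differed by -1.93, Smad6 by -1.79, Bmp7 by -1.70 and Bmpr1a by -0.94, with no overlap between the groups in any of these 7 genes. With NEP arrays 3 and 4 only, Bmp7 differed by -0.87. Glial markers moved alongside, 9 of 12 being called lower and 2 higher in NEP tumors than in NEPs, and so did pericyte, fibroblast and meningeal markers, 10 of 13 lower and 2 higher. Their part was not tested. In GNP tumors 2 genes were called higher than in GNPs and 2 lower, where 18.5% of all genes were called higher and 31.4% lower, 49.8% in either direction. Id3 was higher by 2.48, SE 0.25 (limma adjusted p = 3.93e-07), its arrays lying between 4.87 and 5.19 in GNP tumors and between 2.11 and 2.90 in GNPs. Id4 was higher by 0.91, SE 0.18 (limma adjusted p = 0.000479). Markers moved with these too, 10 of 12 glial, 8 of 13 microglial and 8 of 13 pericyte, fibroblast and meningeal markers being called higher in GNP tumors than in GNPs, and their part was not tested. Bmpr1b differed by -1.89, SE 0.16 (limma adjusted p = 5.10e-08), and Bmpr1a differed by -0.26. Id1 differed by 0.53 without overlap and was not called (limma adjusted p = 0.0653), although it was called when the GNP tumor and GNP arrays alone were fitted (limma adjusted p = 0.000266). By the probe set used, Bmpr1b was lower in both tumors than in the progenitor with the same marker. Id3 and Id4 were both lower in NEP tumors than in NEPs and both higher in GNP tumors than in GNPs.

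**Figure D5:**
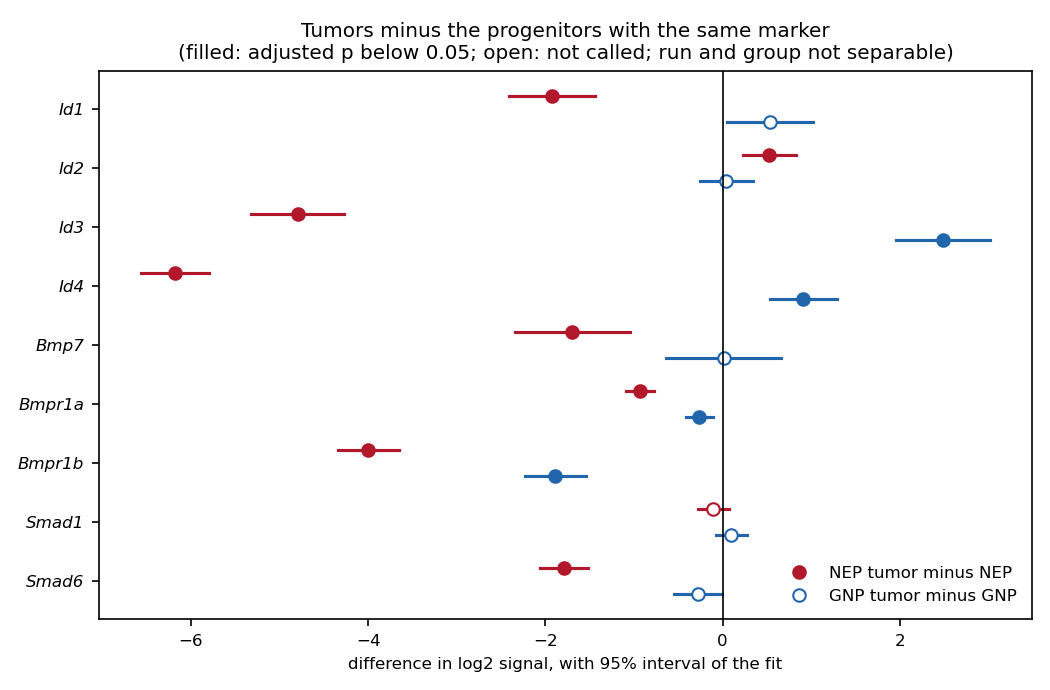
Difference in log2 signal (x axis) with its 95% interval for the 9 tested genes (y axis), NEP tumor minus NEP above GNP tumor minus GNP in each row, filled where called. Id3 lies at -4.80 and 2.48 and Bmpr1b at -3.997 and -1.89.

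The direction of Id2 across runs depended on the probe set. Its value for NEP tumors minus NEPs was 0.53 (limma adjusted p = 0.00344), with no overlap, and for GNP tumors minus GNPs 0.042, not called. With the mean of its 3 probe sets these values were -0.046 and -0.65. Within a run, between NEP tumors and GNP tumors, all 3 probe sets gave positive differences, at 0.48, 0.96 and 0.69.

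NSCs, in the second run, lay between NEPs and GNPs in the Id genes that differed. Id4 had 6.69, 6.84 and 6.92 on the NSC arrays, Id3 had 6.71, 6.78 and 6.80, and Id1 had 7.13, 7.37 and 7.52. None of these overlapped NEPs or GNPs. In NEPs 8 of 9 genes, Smad6 among them, were called higher than in NSCs, or 7 of 8 without Smad6. Of all genes, 30.9% were called higher and 27.6% lower, 58.4% in either direction. Id4 differed by 3.54, SE 0.19 (limma adjusted p = 1.70e-10), Id3 by 2.85, Id1 by 2.03, Bmpr1b by 1.79, Smad6 by 1.28, Bmp7 by 1.23, Bmpr1a by 0.67 and Smad1 by 0.47. Of 12 glial markers, 9 were called higher in NEPs than in NSCs and none lower. Bmp7 differed by 0.41 with NEP arrays 3 and 4 only and was not called with only the NEP and NSC arrays fitted (1.23, limma adjusted p = 0.0757), and Smad1 was not called with the mean of its probe sets (0.20). In GNPs 3 genes were called lower than in NSCs, where 13.1% of all genes were called lower and 23.2% higher, 36.3% in either direction. These were Id3 at -4.25, SE 0.27 (limma adjusted p = 5.46e-09), Id4 at -3.66 and Id1 at -1.26. In the same comparison 11 of 12 glial, 13 of 13 pericyte, fibroblast and meningeal and 10 of 11 endothelial markers were called lower in GNPs, and their part, like that of the glial markers above, was not tested. Bmp7, Bmpr1b and Bmpr1a, at -0.45, -0.29 and -0.13, did not overlap between these groups and were not called. Bmp4 was under the array median on all 3 NSC arrays, on which pericyte, fibroblast and meningeal markers had summed signals of 12.36 to 12.40, above those of NEP arrays 3 and 4.

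In the order of the 5 group means, neighbours often overlapped. For Id3 and Id4 the order was NEPs, NSCs, both tumors, GNPs, with overlap only between the tumors. For Id1 it was NEPs, NEP tumors, NSCs, GNP tumors, GNPs, with overlap only between NEP tumors and NSCs. Bmpr1b ran NEPs, NSCs, GNPs, GNP tumors, NEP tumors, with overlap only between the tumors. For Smad1 every pair of neighbours overlapped, from NEPs and NEP tumors down to GNPs and NSCs.

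Over the 19 arrays Id3 and Id4 varied together (Pearson r = 0.963), and Id4 with Smad6 at 0.929 and Bmpr1a with Bmpr1b at 0.923. Bmp4 and Bmp7 correlated at 0.935, and at 0.945 over deviations from the group means, where Id3 and Id4 gave 0.581. Over these deviations Id4 with Smad6 gave 0.207 and Bmpr1a with Bmpr1b 0.348. The 0.945 follows the split of NEP arrays 1 and 2 from 3 and 4. The SDs of Bmp4 and Bmp7 were 3.48 and 0.97 in NEPs and at most 0.20 and 0.19 in any other group. Id2 correlated with Id1 at -0.011 and with Bmpr1b at -0.43. The arrays share groups, runs and normalization, and these values are descriptions. By the same measure, the tested genes most like each one were as follows. Id4 was closest to Gucy1a1, a guanylate cyclase subunit, Tnc, which encodes the matrix protein tenascin C, and Col23a1, a collagen, at r = 0.995, 0.992 and 0.992. Id3 was closest to Pla2g7, Plat and Slc4a4, and Id1 to Mdga2, Pdlim3 and Aamdc. Bmpr1a was closest to Irx1, Vim and Fras1, and Bmpr1b to Sema6d, Ntrk2 and Lpcat1. Bmp4 was closest to Fa2h, Lyl1 and Il6ra, and Bmp7 to Prrx2, Hacd4 and Fndc1. Smad6 was closest to Orai1, Cpxm1 and Crtac1, and Smad1 to Fbxo8, Kcnj16 and Atxn1l, at 0.939 to 0.907. Id2 was closest to Cdyl, Cul4a and Asb13, with a highest r of 0.883.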

How the data were processed

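RNA of mouse cerebellar progenitors and tumors was measured on 19 arrays, 1 per sample, from 100 ng of RNA. Per the submitters' processing notes, values are the authors' RMA output from Affymetrix Expression Console, deposited as log2 signals per probe set, with the log base checked on spike-ins (Cre minus BioB 5.52, where log2 gives 6.06 and natural log 4.20). Of 45101 probe sets, 34945 carried 1 gene symbol. Of 171 array pairs, 0 were identical. Poly-A spike-ins averaged 7.97 ± 0.21 in the first run (8 arrays) and 6.05 ± 0.25 in the second (11 arrays). The number of arrays limits the precision.

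A gene took its probe set with the highest mean and was tested when that was at or above the array median in at least 3 arrays. A single limma model (version 3.58.1, R 4.3.3) covered all arrays (5 group means, two-sided, Benjamini-Hochberg over 12148 genes, call below 0.05), a method tested on simulated data. Alternatives were other probe sets, normalization, filters, a variance trend, fewer groups, a replicate block and left-out arrays. NEP arrays 3 and 4 only, and NEP tumor arrays 3 and 4 only, were set after earlier results were seen. Named genes were the 10 members, pathway genes called with a log2 difference of at least 2 in progenitors or 1 in tumors, otherwise the largest called in a list, the 3 most like each member, and markers. Some others were named after their values were seen (Bmp5, Bmpr2, Acvr2a, Acvr2b, Hey1, Tcf12, Atoh8). Members and lists were chosen with earlier results of these data known. Proteins were not analysed here.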

Additional observations from a re-analysis of the deposited data

Results flagged for a closer look

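A pair of array values stood out from their group by their gap to the nearest array relative to the range. Id1 on NEP array 4 was 9.99, the highest of the NEP arrays, and Bmpr1b on the same array was 7.28, again the highest. Chance marks about 1 in 20 groups of this size by such a gap. With 10 genes in 5 groups, some such marks arise by chance alone. On that array the microglial and the pericyte, fibroblast and meningeal markers had medians of 2.24 and 5.33, the lowest of the NEP arrays. The Bergmann glia and astrocyte and the ependymal and choroid plexus markers had medians of 10.65 and 5.64, the highest. Their part was not tested.

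For 8 genes the NEP minus GNP difference was not the same in tumors and in progenitors, by the interaction test over all arrays (limma, adjusted p below 0.05). The tumor difference minus the progenitor difference was -2.46 for Id1, 0.48 for Id2, -7.28 for Id3, -7.09 for Id4, -1.71 for Bmp7, -0.67 for Bmpr1a, -2.11 for Bmpr1b and -1.51 for Smad6. Smad6 passed the filter through NEPs only. Of all genes tested, 61.9% had such a call.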

How the results depend on the processing

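In NEP minus GNP, no gene changed its call in any of 142 values under the alternatives and the 8 called genes kept their direction, while Id2, near 0 and never called, ran from -0.17 to 0.13 with 1 array left out. Smad6, Bmper, Msx2 and Atoh8 reached the array median in NEPs only, and the counts without them were made after seeing the data. With NEP arrays 3 and 4 only, the Bmp7 difference fell to 0.86, and with averaged probe sets Bmpr1b gave 0.80 and Bmpr1a 0.49. The count of genes called in NEP tumors minus GNP tumors was 3, and 1 with NEP tumor arrays 3 and 4 only (set with earlier results known and, for the pathway lists, chosen after seeing the data). Leaving out 1 array at a time, it ran from 1 to 2. In GNP minus NSC the count was 3, and 5 with only the groups compared. Among values called in either setting, direction changed with the mean of all probe sets for Id2 in NEP minus NSC (0.41), NEP tumor minus NEP (-0.046) and GNP tumor minus GNP (-0.65), and for Smad1 in GNP minus NSC (-0.29). Among values called in neither, it also changed for Id2 in NEP minus GNP (0.10) and GNP minus NSC (0.30), Smad1 in NEP tumor minus NEP (0.11), Bmpr1a in GNP minus NSC (0.034), Id4 in NEP tumor minus GNP tumor (-0.029) and Bmp7 in GNP tumor minus GNP (-0.040). Whether same-numbered arrays are paired is not known here. They did not all correlate above 0.1 over deviations from group means, which cannot exclude pairing with so few arrays. Same-numbered NEP and GNP arrays carry consecutive numbers in their titles. The main fit used no pairing. The replicate block gave 8 called genes in NEP minus GNP, 2 in NEP tumor minus GNP tumor and 7 in the interaction. It gave 8 in NEP tumor minus NEP and 6 in GNP tumor minus GNP. Among pathway lists in NEP minus GNP, Smads and regulators gave 7 calls with averaged probe sets and 7 with NEP arrays 3 and 4 only, and the filter at the 75th percentile left 0 ligands, 4 antagonists and 1 other target called, since fewer genes were tested. In NEP tumor minus GNP tumor, the mean of all probe sets gave 1 ligand, 0 receptors and 2 E proteins and bHLH factors. A second quantile normalization gave 2 receptors and 0 E proteins and bHLH factors, no filter 0 receptors, 1 other target and 0 E proteins and bHLH factors, the 75th percentile filter 0 antagonists, and a variance trend 2 receptors. NEP tumor arrays 3 and 4 only gave 1 ligand, 0 receptors, 1 antagonist, 2 Smads and regulators and 0 genes of the TGF-beta branch. Apart from the filter, the cause of these shifts was not tested. Signals near the array median, such as Bmp4, Smad6 and GNP Id3, hold no detection call and limit what folds mean.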
